A study of Homo sapiens with 5 samples.

Results

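The mesenchymal switch genes are 8 genes whose products mark or drive the epithelial-to-mesenchymal transition (EMT): VIM, ZEB1, ZEB2, SNAI1, SNAI2, TWIST1, CDH2 and FN1. They were taken by name from the 19689 genes with a protein-coding transcript in GENCODE release 44 on GRCh38, and every peak of the 5 deposited lists over each gene and 10 kb to each side was read. Binding was profiled by CUT&Tag, in which an antibody directs a transposase to cut and tag the DNA around its target, in SNU638 cells, an established gastric cancer line for which no treatment was named. There was 1 library each for anti-BRG1, anti-ACTL6A and anti-NRF2, and 2 libraries for IgG, called IgG 1 and IgG 2 here. BRG1 is the ATPase of the SWI/SNF chromatin remodelling complex, ACTL6A is an actin-like subunit of that complex, and NRF2 is a transcription factor of the antioxidant response. No antibody was replicated, so values between lists are described and not tested, and a peak says nothing of a gene's expression.

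In EMT, epithelial cells lose their junctions and gain the ability to migrate. The transcription factors SNAI1 and SNAI2 (zinc finger proteins of the Snail family), ZEB1 and ZEB2 (zinc finger and homeobox proteins) and TWIST1 (a basic helix-loop-helix protein) bind E-box sequences, and the Snail and ZEB factors repress the E-cadherin gene CDH1. VIM encodes vimentin, an intermediate filament protein of mesenchymal cells, CDH2 encodes N-cadherin, which takes the place of E-cadherin, and FN1 encodes fibronectin of the extracellular matrix.

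The BRG1 list held 8 peaks over these genes, the ACTL6A list 6 and the NRF2 list 1, and neither IgG list held any. VIM, ZEB1 and SNAI1 had BRG1 at a transcriptional start site (TSS), meaning that some base of the peak lay no more than 1 kb from where any of the gene's protein-coding transcripts begins. ZEB1 was the member with peaks of all 3 antibodies. CDH2 and TWIST1 had no peak of any list. ZEB2 and FN1 each had a BRG1 peak far from the start and nothing else, and at SNAI2 the peaks lay outside the 1 kb limit.

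The DNA under these peaks is shown first, since it shows which binding-site letters lay at the summits. Each line gives 200 bases centred on a BRG1 or NRF2 summit, plus strand, GRCh38, and for VIM 30 bases around matches near the summit. Capitals mark matches, on either strand, to the E-box CAGGTG, the AP-1 site TGANTCA or the antioxidant response element (ARE) core TGACNNNGC. The windows that overlap an annotated UTR at VIM were not printed.
VIM, 30 bases at the start peak of BRG1, chr10:17228523-17228552: cggTGAGTCAccgccggTGACTAAGCgacc
ZEB1, BRG1 summit, chr10:31318296-31318495: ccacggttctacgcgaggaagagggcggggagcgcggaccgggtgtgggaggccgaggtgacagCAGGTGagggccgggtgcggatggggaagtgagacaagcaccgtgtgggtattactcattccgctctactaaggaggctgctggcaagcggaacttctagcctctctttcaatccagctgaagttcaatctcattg
ZEB1, NRF2 summit, chr10:31318703-31318902: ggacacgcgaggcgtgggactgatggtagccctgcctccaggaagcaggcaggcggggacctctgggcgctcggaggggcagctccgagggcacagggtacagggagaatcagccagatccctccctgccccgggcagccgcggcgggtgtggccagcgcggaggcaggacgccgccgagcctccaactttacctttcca
SNAI1, upstream BRG1 summit, chr20:49979136-49979335: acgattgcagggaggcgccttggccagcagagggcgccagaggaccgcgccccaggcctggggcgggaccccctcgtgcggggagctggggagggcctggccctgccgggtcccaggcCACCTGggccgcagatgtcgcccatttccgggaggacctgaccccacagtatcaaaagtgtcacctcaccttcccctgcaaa
ZEB2, BRG1 summit downstream, chr2:144358045-144358244: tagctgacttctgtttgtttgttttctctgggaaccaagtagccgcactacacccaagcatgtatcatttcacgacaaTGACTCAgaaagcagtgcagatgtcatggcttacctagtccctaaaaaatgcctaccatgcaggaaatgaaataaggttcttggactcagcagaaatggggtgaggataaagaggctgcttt
FN1, BRG1 summit in intron 13, chr2:215410937-215411136: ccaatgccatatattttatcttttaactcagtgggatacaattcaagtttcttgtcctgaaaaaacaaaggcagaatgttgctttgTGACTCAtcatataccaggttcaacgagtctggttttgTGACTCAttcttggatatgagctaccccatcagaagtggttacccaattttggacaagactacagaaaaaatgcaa

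An E-box lay in the BRG1 window of ZEB1 and in both BRG1 windows of SNAI1, all in GC-rich DNA. The GC content was 59.5% at the ZEB1 BRG1 summit and 70.0% at the upstream SNAI1 summit. It was 75.5% at the SNAI1 start summit, whose window is not printed. AP-1 matches lay in the windows of ZEB2, with a GC content of 44%, and FN1, with 37.5%, which has 2 copies of TGACTCA. They also lay in GC-rich windows, those of VIM, at 68.5%, and SNAI2, at 62%, which held an E-box too. At VIM an AP-1 match, TGAGTCA, from 17228526 to 17228532 and an ARE core match, TGACTAAGC, from 17228540 to 17228548 stood side by side, 288 bp and 303 bp past the start. They lay just past exon 1 of the MANE Select transcript, in its intron 1, and in the 5′ UTR of another protein-coding transcript, ENST00000478746. The NRF2 summit window of ZEB1, 200 of the 1040 bp of that peak, held no match to any of the 3 patterns. Among all NRF2 windows, 14.6% held an E-box, 4.37% an AP-1 site and 9.67% an ARE core, so most lack each pattern.

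Over the 8 BRG1 windows, 4 held an E-box, 4 an AP-1 site and 1 an ARE core. Among all BRG1 windows in the genome the shares were 24.9% for the E-box, 13.2% for AP-1 and 11.5% for the ARE core. AP-1 matches were commoner away from a TSS, in 16.9% of BRG1 windows against 4.80% at a TSS, and 3 of the 4 AP-1 windows of the members (ZEB2, FN1 and SNAI2) lay away from a TSS. Of the 6 ACTL6A windows, 1 held an E-box, the same site of ZEB1 as in the BRG1 window, and 0 held an AP-1 or ARE match, beside 23.3%, 8.04% and 9.89% of all ACTL6A windows. No matches of different patterns overlapped. A match is a description of the letters and not of a bound factor, and 8 windows are too few to set these shares apart.

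VIM (ENSG00000026025) lies on the plus strand of chromosome 10 from 17228241 to 17237593, and its MANE Select transcript ENST00000544301 has 10 exons. BRG1 had a peak just inside the gene, from 17228417 to 17228932. Its summit lay in intron 1, 372 bp past the MANE Select start and 98 bp past the start of another protein-coding transcript. MACS2, the peak caller, gave it a -log10 q of 21.6 and a fold enrichment, which sets the summit's fragments over the number expected with 1 added to each, of 9.31. The summit held 33 fragments against 2.65 expected. Its place by -log10 q was 5790 among 48793 BRG1 peaks, in the highest 11.9%. It was the BRG1 peak with the highest rank among those at a start of these genes.

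Farther into VIM, BRG1 and ACTL6A overlapped. The BRG1 peak ran from 17229936 to 17230603, with a fold enrichment of 7.12, 25 fragments against 2.65 expected and a place in the highest 21.8% of its list. The ACTL6A peak ran from 17230090 to 17230839, with a fold enrichment of 6.08, 9 fragments against 0.644 expected and a place in the highest 27.2% of its list. They shared 514 bp, and both summits lay in intron 2, 305 bp apart. Both counted as peaks at a TSS because another protein-coding transcript of VIM starts at 17229278, although the ACTL6A summit lay 1888 bp past the MANE Select start. VIM-AS1, an antisense long noncoding RNA gene, has a start within 1 kb of all 3 peaks, and its part in them cannot be told apart from that of VIM. The NRF2 list had nothing here, its nearest peak being 26486 bp from the MANE Select start.

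ZEB1 (ENSG00000148516), on the plus strand of chromosome 10 from 31318495 to 31529814, had all of its peaks at the start, and all of them overlapped the 5′ end of the annotated gene. The rest of the gene body, of over 200 kb, held none. The BRG1 peak ran from 31318237 to 31318995, with its summit 820 bp upstream of the MANE Select start at 31319216. The fold enrichment was 7.05 and 13 fragments were recovered against 0.987 expected. The ACTL6A peak, from 31318408 to 31318588, lay wholly within it, with summits 18 bp apart, and held 5 fragments against 0.299 expected. This ACTL6A peak ranked in the highest 50.7% of its list and the BRG1 peak in the highest 33.9%.

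The NRF2 peak of ZEB1 was broader than those of the other antibodies, 1040 bp from 31318213 to 31319252, and reached the MANE Select start. NRF2 peaks at a TSS were wider in general, with a median of 557 bp, beside 419 bp for BRG1 and 279 bp for ACTL6A. The NRF2 peak of ZEB1 covered 100% of both the BRG1 and the ACTL6A peak. Its summit, however, lay closer to the MANE Select start, 413 bp upstream of it and 407 bp from the BRG1 summit. The fold enrichment was 5.00, with 29 fragments against 5.00 expected, and the rank was 2002 of 9045, in the highest 22.1%. Of the NRF2 peaks at a TSS it stood in the highest 22.5%. ZEB1-AS1, an antisense long noncoding RNA gene that overlaps the ZEB1 start, begins within 1 kb of all 3 peaks, and its part in them cannot be told apart from that of ZEB1.

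SNAI1 (ENSG00000124216), a short gene on the plus strand of chromosome 20 from 49982980 to 49988886, carried the strongest peak found over any member. This BRG1 peak lay upstream, from 49979172 to 49979500, with its summit 3744 bp before the start. The summit held 38 fragments against 2.37 expected, a fold enrichment of 11.6, and the -log10 q was 28.8. It ranked 3595 in the list, in the highest 7.37%, and among the 33628 BRG1 peaks away from a TSS it was in the highest 3.66%. ACTL6A had a peak inside it, from 49979220 to 49979435, with a fold enrichment of 6.12 and 8 fragments against 0.471 expected, in the highest 27.4% of that list. The 2 summits lay 131 bp apart. No other gene has an annotated start within 1 kb of these 2 peaks.

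A weaker BRG1 peak, from 49982609 to 49982894, lay directly before the SNAI1 start, with its summit 128 bp upstream. It had a fold enrichment of 5.35, 20 fragments against 2.92 expected and a rank of 16956, in the highest 34.8%. ACTL6A and NRF2 had no peak at this start. At SNAI1, therefore, the upstream site had more BRG1 fragments than the start, and it was the place where ACTL6A was found.

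The start peaks of these genes were set beside the medians of their lists. The median BRG1 peak at a TSS had 18 fragments and a fold enrichment of 7.25, beside the 33 and 25 fragments of the VIM peaks, 20 at SNAI1 and 13 at ZEB1. For ACTL6A the median at a TSS was 9 fragments, beside 9 at VIM and 5 at ZEB1. For NRF2 it was 18, beside 29 at ZEB1. Among BRG1 peaks at a TSS, the start peak of VIM was in the highest 24.6%, that of ZEB1 in the highest 58.7% and that of SNAI1 in the highest 59.8%. The first of these stood above the middle of the list and the others slightly below it.

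SNAI2 (ENSG00000019549) runs from 48921740 down to 48917598 on chromosome 8. It had its BRG1 peak from 48923450 to 48923697, with a summit 2102 bp upstream of the MANE Select start. The fold enrichment was 9.96, with 13 fragments against 0.406 expected, in the highest 22% of the list and in the highest 12.8% of those away from a TSS. An ACTL6A peak from 48923421 to 48923549 shared 100 bp with it, with summits 57 bp apart and 5 fragments against 0.307 expected. As at SNAI1, BRG1 and ACTL6A met upstream of the gene, here with fewer fragments, and the start itself had no peak. The BRG1 window there held an E-box and an AP-1 match.

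Past the 3′ end of SNAI2 were 2 ACTL6A peaks with no BRG1 peak, with summits 9048 bp and 10628 bp downstream of the start. They held 3 and 4 fragments against 0.182 expected and ranked in the highest 80.4% and 53.8% of the list. These were the lowest fragment numbers of the 15 peaks over the 8 genes. The NRF2 list had a peak 9594 bp beyond the 10 kb limit, with 10 fragments against 1.95 expected.

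ZEB2 (ENSG00000169554), the paralog of ZEB1, covers positions 144364364 to 144521057 of chromosome 2, minus strand, and had no peak at any of its 31 distinct protein-coding starts. The BRG1 peak counted for it, from 144358085 to 144358223, lay past the 3′ end of the gene, 161974 bp from the MANE Select start. The MANE Select transcript ends at 144384081, more than 10 kb from that peak. The peak was narrow, at 139 bp, with a fold enrichment of 8.37 and 10 fragments against 0.315 expected. No ACTL6A or NRF2 peak was found within 10 kb of the gene. The nearest ACTL6A peak lay 139765 bp from the MANE Select start. At their starts, ZEB1 had a peak of each of the 3 antibodies and ZEB2 had none.

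FN1 (ENSG00000115414), at 215360440 to 215436073 of chromosome 2, minus strand, had a BRG1 peak in intron 13 of its 46-exon MANE Select transcript, from 215410785 to 215411096. The summit lay 25031 bp past the start. The fold enrichment was 6.81, with 9 fragments against 0.469 expected, in the highest 38.6% of the list, the lowest rank of the 8 BRG1 peaks. The start of FN1 had no peak, and the ACTL6A list had none within 78594 bp of it.

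CDH2 (ENSG00000170558) spans chromosome 18 from 27932879 to 28177946 on the minus strand, and its region of 265 kb was the longest of the 8. No list had a peak in it. The nearest BRG1 peak lay 337678 bp from the MANE Select start and the nearest ACTL6A peak 897215 bp. Of the 1097 genes at least as long as CDH2, 18.4% had no BRG1 peak, 19.8% no ACTL6A peak and 8.75% no peak of any of the 3 antibodies.

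TWIST1 (ENSG00000122691) is a minus-strand gene of chromosome 7. Its annotated gene runs from 19020991 to 19117636, although the MANE Select transcript covers only 2169 bp at its 5′ end. The nearest BRG1 peak lay 287321 bp from the start and the nearest NRF2 peak 543471 bp, inside HDAC9. An ACTL6A peak was closer, at 59691 bp, with 4 fragments against 0.182 expected. Of the 3709 genes at least as long as the annotated TWIST1, 7.90% had no peak of any of the 3 antibodies.

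**Figure D1:**
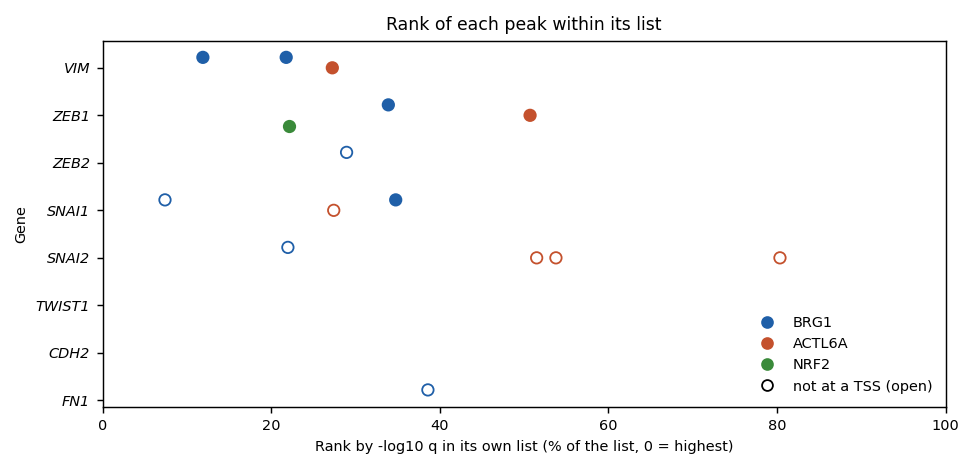
Rank of each peak within its own list by -log10 q, as a percentage of the list in which 0 is the highest, for each gene and antibody. Filled points lie at a TSS. The 8 BRG1 points lie between 7.37% and 38.6%, and the 6 ACTL6A points between 27.2% and 80.4%.

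The counts were set beside those of all protein-coding genes. A BRG1 peak lay in the region of 6 of the 8 members, and of 82.7% of all genes. For ACTL6A the count was 4 of 8, against 66.9%, and for NRF2 1 of 8, against 41.1%. At a TSS, 3 of 8 members had BRG1, against 63.5% of genes, 2 of 8 ACTL6A, against 38.5%, and 1 of 8 NRF2, against 28.1%. The members' shares at a TSS were below the genome-wide percentages in each list, and with 8 genes and 1 library an antibody no test was made. With no list at the start were 5 of 8 members, beside 34.4% of all genes.

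Several of these genes are long, and the counts were also read per length. The member regions held 0.829 BRG1 peaks per 100 kb, where all genes held 3.12. For ACTL6A the values were 0.622 and 1.38, and for NRF2 0.104 and 0.594. Most of the members had CpG-rich starts, as did 65.7% of the 19060 genes read in the same way. In 1 kb centred on the MANE Select start, 7 of the 8 had a GC content of at least 50% with an observed to expected CpG ratio of at least 0.6, ZEB2 being the exception at 49.3% and 0.527. Of all genes with such a CpG-rich start 81.7% had a BRG1 peak at a TSS, 49.9% an ACTL6A peak and 38.6% an NRF2 peak, beside 3, 2 and 1 of the 7 members. CDH2, with the highest CpG ratio of the members at 0.880, and TWIST1, with 0.859, were those without any peak.

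For EMT more widely, a list of 20 further genes of the pathway was read the same way. Of these, 17 had a BRG1 peak in the region and 12 at a TSS, 6 had ACTL6A at a TSS and 2 had NRF2 there. The density of BRG1 peaks was 3.20 per 100 kb, close to that of all genes. TGFBR2, a receptor for TGF-beta, which induces EMT, had the highest-ranked start peak of the list, at rank 872 with 54 fragments against 1.99 expected. Taking the best start peak of each gene, the lowest rank in this list was 48458, with 3 fragments against 0.294 expected. CDH11 (a mesenchymal cadherin), COL3A1 (a collagen chain) and TCF4 (an E-protein that partners TWIST1) had no BRG1 peak in their regions. CDH11 and TCF4 had no ACTL6A or NRF2 peak either, as CDH2 and TWIST1 did not.

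Epithelial genes gave the other end of the range for BRG1 and ACTL6A. All 18 genes of an epithelial list had a BRG1 peak in the region, against 82.7% of all genes. An ACTL6A peak lay in the region of 17, against 66.9%. At a TSS, 15 had BRG1 and 10 had ACTL6A, or 83.3% and 55.6% of the list. These shares stood near the 81.7% and 49.9% of all genes with a CpG-rich start. The density was 6.26 BRG1 peaks and 1.84 ACTL6A peaks per 100 kb, in which a peak over several genes was counted for each. The highest-ranked start peaks were those of JUP (junction plakoglobin), at rank 722 with 85 fragments against 6.84 expected, and KRT8 (keratin 8), at rank 894 with 64 against 3.48. Next were EPCAM at rank 2179 with 36 against 1.18 and ESRP2, an epithelial splicing regulator, at rank 2586 with 63 against 6.98. By the best start peak of each gene, the lowest rank in the epithelial list was 45106, with 3 fragments against 0.271 expected. The E-cadherin gene CDH1, chosen after its values were seen as the counterpart of CDH2, had 4 BRG1 peaks, 1 ACTL6A and 1 NRF2 peak in a region of 118 kb, against 0 in the 265 kb of CDH2. For NRF2, 6 of 18 epithelial genes, 5 of 20 of the wider EMT list and 1 of 8 members had a peak in the region, with densities of 0.408, 0.291 and 0.104 per 100 kb, all below the 0.594 of all genes. At a TSS the NRF2 counts were 1 of 18, 2 of 20 and 1 of 8, against 28.1% of all genes. The difference between the lists was not tested.

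BRG1 and ACTL6A met at 4 places: VIM intron 2, the ZEB1 start, and upstream of SNAI1 and of SNAI2. So 4 of the 6 ACTL6A peaks overlapped a BRG1 peak by at least 1 bp, beside 49.8% of all ACTL6A peaks. Of the 8 BRG1 peaks, 4 overlapped an ACTL6A peak, beside 24.1% of all BRG1 peaks. All 8 had a -log10 q of at least 5, as did 49.5% of all BRG1 peaks, and the shares were not matched for this. The 2 ACTL6A peaks that stood alone were those past SNAI2. The 4 BRG1 peaks without ACTL6A were those at the VIM start, the SNAI1 start, ZEB2 and FN1, with 33, 20, 10 and 9 fragments, beside 38, 25, 13 and 13 at the BRG1 peaks with ACTL6A. The NRF2 peak of ZEB1 overlapped both, as 66.2% of all NRF2 peaks did with BRG1 and 49.8% with ACTL6A.

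Over the genome the median peak held 6 fragments in the ACTL6A list, 10 in the BRG1 list and 17 in the NRF2 list. Fragments and expected numbers were recovered from the caller's own fold enrichment and p-value, and enrichments, q-values and ranks were not compared between lists. Of the 6 ACTL6A peaks over these genes, 4 held 5 or fewer fragments. IgG 1 had 11 peaks in the genome and IgG 2 had 1746, over 7 and 328 gene regions, so that 0 IgG peaks over the 8 genes was also the usual value for a gene.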

How the data were processed

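Peak lists from 5 CUT&Tag libraries of SNU638 cells were read, and no condition was varied. The authors used BWA to map paired-end reads to hg38 and gave uniquely mapped reads to MACS2, keeping peaks with a q-value below 0.05. The submitters' notes also name fastp 0.23.0. Per the file layout, the authors' deposited columns hold a score (10 times the -log10 q, cut to a whole number), the fold enrichment with a pseudocount of 1, and the -log10 p and -log10 q. The control given to the caller is not given in the sources used here. Read depth was not recomputed, and the paper reports a different number of reads for each antibody. The fragments at each summit describe that place and not the depth of the library.

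All peaks lay on the main chromosomes and 0 passed a chromosome end. Gene regions, starts and places came from GENCODE release 44, and sequences from the GRCh38 genome. A peak was at a TSS within 1 kb, and ranks were by -log10 q. Fragments were recovered as the whole number that gave both the fold and the Poisson p within 0.001 on the -log10 scale. CpG windows were 1 kb and motif windows 200 bp. The sequences of some summit windows are not reported here.

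The members and gene lists were chosen with earlier results of these data known. Named genes were the 8 members, genes starting within 1 kb of their peaks, and up to 4 of each list: those without a BRG1 peak and those with the highest-ranked start peak. CDH1, and HDAC9, TRDMT1 and GTDC1 as the genes that hold a nearest peak, were named outside this rule, after their values were seen. Routines recovered 100% of planted overlaps, fragments and motifs in simulated data. Alternatives were other thresholds, flanks, TSS distances, overlaps and peaks shared with IgG left out. Scripts ran in Python 3.11.15 with pandas 2.3.3 and NumPy 2.4.6, the Poisson p came from SciPy 1.17.1, sequences from pysam 0.24.0 and plots from matplotlib 3.10.9.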

Additional observations from a re-analysis of the deposited data

How the results depend on the processing

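Of 84 alternative values for 13 counts, 29 left out IgG libraries or peaks shared with IgG and could not differ, since no IgG peak lay over the genes. Of the other 55, 31 stayed within 1.5-fold and 24 did not. Most of the latter come from settings that drop peaks by construction. Among the highest 5000 peaks of each list, 1 member kept a BRG1 peak in its region (1 peak, upstream of SNAI1) and 0 at a TSS. For ACTL6A, 0 members kept peaks (0 peaks, 0 at a TSS), while the NRF2 peak of ZEB1 stayed. The overlaps of ACTL6A with BRG1, NRF2 with BRG1 and NRF2 with ACTL6A were 0, 0 and 0. The lists hold 48793 BRG1, 23917 ACTL6A and 9045 NRF2 peaks, so this cut is strictest for BRG1 and mildest for NRF2. At a -log10 q of at least 5, all 8 BRG1 peaks remained, while 2 ACTL6A peaks over 2 members remained (VIM and SNAI1), 1 of these members at a TSS, with 2 overlapping BRG1, and the NRF2 overlap with ACTL6A was 0. With no flank, 3 members had BRG1 (4 peaks) and 2 had ACTL6A (2 peaks). With a flank of 25 kb, 2 members had NRF2 (2 peaks), SNAI2 being added. ACTL6A was at a TSS of 0 members within 250 bp and of 1 with the MANE Select start alone. Where peaks had to share 50% of each other's length, 2 ACTL6A peaks overlapped BRG1 (at VIM and SNAI1) and 0 NRF2 peaks overlapped ACTL6A. The overlaps of BRG1 and ACTL6A at ZEB1 and SNAI2 were lost. Regions taken from the MANE Select transcript, a choice made after the data were seen, changed no count beyond 1.5-fold. BRG1 then had 7 peaks over 5 members, since ZEB2 lost its only peak. No paired analysis was possible because BRG1, ACTL6A and NRF2 were profiled in 1 library apiece.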

Other observations

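Just outside the 10 kb limits lay a few further peaks. Upstream of VIM, BRG1 had a peak 1704 bp beyond the limit, inside VIM-AS1, with 15 fragments against 0.658 expected and a fold enrichment of 9.65. Farther upstream, inside the neighbouring gene TRDMT1, which encodes an RNA methyltransferase, ACTL6A had a peak with 11 fragments against 0.352 expected and NRF2 one with 22 against 3.39, 16571 bp and 16486 bp beyond the limit. Beyond the 3′ end of ZEB2, BRG1 and ACTL6A had peaks 21459 bp and 21473 bp past the limit, with 18 fragments against 1.32 expected and 6 against 0.404. The BRG1 summit there lay inside another gene, GTDC1, and the ACTL6A peak lay within the BRG1 peak. Past SNAI1, ACTL6A had a peak 10726 bp beyond the limit with 5 fragments against 0.322 expected. These peaks were named after their values were seen.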
